A study of Mus musculus with 17 samples.

Results

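The genes described are the cytosolic ribosomal protein (RP) genes of mouse hematopoietic stem and progenitor cells. They were taken from the gene names on the arrays by a name pattern: Rpl or Rps followed by a number and, at most, a letter and a digit, together with Rpsa, Rplp0, Rplp1 and Rplp2. The pattern found 82 of 28090 gene names, 32 of the small (40S) subunit, 47 of the large (60S) subunit and 3 of the ribosomal stalk. They carried 142 probes on the array. The probe with the highest mean was read for each gene, and 37 genes had 1 probe and 45 had several. Fau, a fusion gene whose product also ends up in the ribosome, does not match the pattern and was counted with the other translation genes.

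A ribosome is built from ribosomal RNA and a single copy of nearly every ribosomal protein, so these mRNAs are made in large and roughly coordinated amounts in all dividing cells. Many of them start with a run of pyrimidines, the 5′ terminal oligopyrimidine (TOP) motif, through which mTORC1 and Larp1 set how well they are translated. In blood, loss of a single copy of one of several RP genes causes Diamond-Blackfan anemia, in which red cell precursors fail, and loss of RPS14 is a part of the 5q- syndrome.

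The arrays held total RNA from bone marrow of female C57Bl/6 mice of young adult age, with no treatment, pooled from several animals per replicate. Lineage-depleted, c-kit-enriched marrow was sorted on c-kit, Sca-1, CD34, FLT3 and Fc gamma receptor into 6 populations. They were long-term hematopoietic stem cells (LT-HSC, 2 arrays, 1 of them labelled as a 2-3 pool), short-term HSC (ST-HSC), multipotent progenitors (MPP), common myeloid progenitors (CMP), granulocyte-macrophage progenitors (GMP) and megakaryocyte-erythrocyte progenitors (MEP), with 3 arrays each. LT-HSC, ST-HSC and MPP, called the HSC subsets, came from one kind of sort, and CMP, GMP and MEP, the myeloid populations, from another. Each of the 17 samples was labelled with Cy3 and hybridized alone to an Agilent whole mouse genome array, so all values are relative RNA levels in equal labelled RNA: fewer cells of a type and less RNA per cell cannot be told apart in them.

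The arrays were grouped into 3 scanning runs by the year and month of the scan date in the scanner files. Whether RNA preparation, labelling and hybridization followed the same batches is not known. A difference between runs therefore cannot be told apart from one between mouse pools or these steps. Run 1, on another scanner model than the rest, held replicates 1 and 2 of CMP, GMP and MEP. Run 2 held the arrays of CMP, GMP, MEP, MPP and ST-HSC that have no replicate number, 1 per population. Run 3 held the LT-HSC arrays and replicates 2 and 3 of ST-HSC and MPP. HSC subsets and myeloid populations therefore met in run 2 only, on 5 arrays. In run 2 the MEP and ST-HSC arrays were on another slide than those of CMP, GMP and MPP, and in run 3 the LT-HSC arrays were on another slide than those of ST-HSC and MPP. Between 48.2% and 70.1% of spots were well above background on 16 arrays and 41.4% on the unnumbered LT-HSC array, the dimmest.

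The marker lists set some populations apart and overlapped in others. The summed log2 level of 5 HSC genes was 13.81 to 13.93 on the LT-HSC arrays, 13.40 to 13.64 in ST-HSC and 13.39 to 13.90 in MPP. On the MEP arrays it was 7.39 to 8.09, with 3 of the 5 well above background on any MEP array. The summed level of 6 erythroid progenitor genes was 16.21 to 16.33 in MEP and 10.81 to 11.22 in GMP. That of 6 granulocyte-macrophage genes was 19.20 to 19.79 in GMP, but also 18.30 to 19.01 in ST-HSC and 17.95 to 19.06 in CMP. All 6 genes of mature neutrophils were above background in every population, with summed levels of 18.03 to 19.11 on the LT-HSC and ST-HSC arrays and 15.23 to 17.81 on the CMP, GMP and MEP arrays. The MPP arrays, at 16.19 to 18.14, overlapped both. The 6 mature erythroid genes summed to 14.16 to 15.85 in MEP, 14.13 to 14.54 in LT-HSC, 13.33 to 14.43 in ST-HSC and 8.94 to 10.75 in GMP. Marker lists of other cells, of 6 genes each, moved with the comparisons described below. Their counts and median log2 differences follow, first without and then with the scanning run in the fit. In HSC subsets against myeloid populations 6 and 2 T cell genes were called higher (medians 1.67 and 1.57), 5 and 3 B cell genes (1.13 and 0.79), 4 and 3 macrophage genes (1.06 and 1.45), and 4 and 5 mature neutrophil genes (1.20 and 2.75). In LT-HSC against ST-HSC and MPP, 6 and 6 erythroid progenitor genes were higher (2.47 and 2.62), 3 and 4 B cell genes (1.18 without the run), 2 and 2 mature erythroid genes (0.68 and 0.89), and 0 and 3 mature neutrophil genes (1.49 and 2.10), while 2 and 2 macrophage genes were lower (-0.82 and -0.78). In GMP against the others 6 and 5 mature erythroid genes were lower (-2.27 and -2.41) and 4 and 3 T cell genes (-1.67 and -1.37). With the run 3 mature neutrophil genes were lower and 1 higher in GMP (-1.79), and without it 3 macrophage genes were higher and 1 lower (0.18). In MEP against the others 6 and 6 mature erythroid genes were higher (2.59 and 2.81), and 4 and 5 macrophage genes were lower (-1.24 and -1.49). Of the B cell genes 3 and 3 were lower, and 1 was higher with the run (-1.63 and -1.40). Also lower in MEP were 2 and 2 T cell genes (-0.57 and 0.04) and 1 and 2 mature neutrophil genes (-0.28 and -1.09). The part of these lists in the RP gene levels was not tested.

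Of the 82 RP genes, 80 were well above background on all 17 arrays. No RP gene spot was marked as saturated. The exceptions were Rpl3l and Rpl39l, paralogs of Rpl3 and Rpl39 best known from muscle and male germ cells. For 39 of the genes the probe listed more than 1 RefSeq transcript, and for 30 it listed a predicted one. The Rpl10 probe listed no RefSeq transcript. For these and the other genes, signal from processed copies cannot be told apart from that of the gene.

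Each reading came from a probe, and the probes of the genes on which the comparisons turn are given here by the first 30 of their 60 bases, 5′ to 3′, with the position the scanner files give on mm9. The Rps27l position is longer than the probe.
Rps27l (chr9:66795486-66797176): aaagccaggctcacagaaggctgttcattt
Rps27 (chr3:90016591-90016650): ctgaaagcccctgattgaagatgagtggga
Rpl14 (chr9:120483689-120483748): cagggggtaccatgacagtacaacagtgtc
Rpl27a (chr7:116665756-116665815): caacaggacatcactggttgggaatactgt
Rpl31 (chr1:39428271-39428330): gggtgttggaaattaatctgagaatctctg
Paralogs were compared probe against probe. In the best ungapped alignment, the probe of Rps27 matched that of Rps27l at 23 of 60 bases, and the probes of the other 4 pairs (Rpl22 and Rpl22l1, Rpl3 and Rpl3l, Rpl7 and Rpl7l1, Rpl39 and Rpl39l) matched at 20 to 23. The match of a probe to the transcript of its paralog was not tested.

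Runs of pyrimidines were looked for near the annotated starts of the RP genes, since these genes moved together across arrays. The search did not ask that the mRNA begin with the run, as the TOP motif does. A window of 30 bases around the start, 15 of them before it, is given for the genes above and for 2 without such a run, Rplp0 and Rpl7l1, in the direction of transcription (RefSeq, GRCm38.p6). Capitals mark runs of at least 6 C or T. In the Rps27l window the run ends before the start.
Rps27l (chr9:66946071-66946100, + strand, 1 of 2 starts): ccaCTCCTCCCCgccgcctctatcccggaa
Rps27 (chr3:90213634-90213663, - strand): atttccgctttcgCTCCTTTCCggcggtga
Rpl14 (chr9:120571502-120571531, + strand): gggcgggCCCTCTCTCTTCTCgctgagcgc
Rpl27a (chr7:109519180-109519209, + strand): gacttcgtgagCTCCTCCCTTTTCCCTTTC
Rpl31 (chr1:39367836-39367865, + strand): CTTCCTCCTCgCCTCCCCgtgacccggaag
Rplp0 (chr5:115559452-115559481, + strand): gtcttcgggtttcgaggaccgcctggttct
Rpl7l1 (chr17:46782642-46782671, - strand): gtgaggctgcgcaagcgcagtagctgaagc
A start sequence was held for 61 of the 82 genes. A run of at least 6 C or T within 10 bases on either side of the start was found for 32 of the 61 (52.5%) and for 6227 of 27025 genes of the same table (23.0%). On the other strand, as a run of G or A, it was found for 6 RP genes (9.84%) and for 6714 of all genes (24.8%).

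RP genes differed less between populations than all gene names did in the median. They were also among the brightest, with 75 of the 82 in the top 5% of gene names by mean. A comparison with genes of like brightness was not made. The range of the 6 population means had a median of 0.65 log2 over the 82 genes and 1.18 over all gene names. The residual SD between arrays of a population was 0.41 for both, in the median. With the scanning run in the fit, this SD came to 0.16 for the RP genes and 0.30 for all gene names, and the range of means to 0.48 and 1.11. In limma's moderated F-test over the 6 populations, with Benjamini-Hochberg adjustment over all gene names and a threshold of 0.05, 7 of the 82 RP genes were called, where 40.2% of all gene names were called. With the run in the fit it called 10 of 82, where 39.4% of all gene names were called. The 4 genes called in both fits were Rps27l, Rpl14, Rpl27a and Rpl3l, the F-test's adjusted p being 0.0131, 0.000838, 0.00666 and 0.00125 without the run. For 53 of the 82 genes the highest population mean was in MPP, for 13 in CMP, for 8 in ST-HSC, for 7 in MEP and for 1 in LT-HSC. MPP had no array in run 1, where most RP genes were low.

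**Figure D1:**
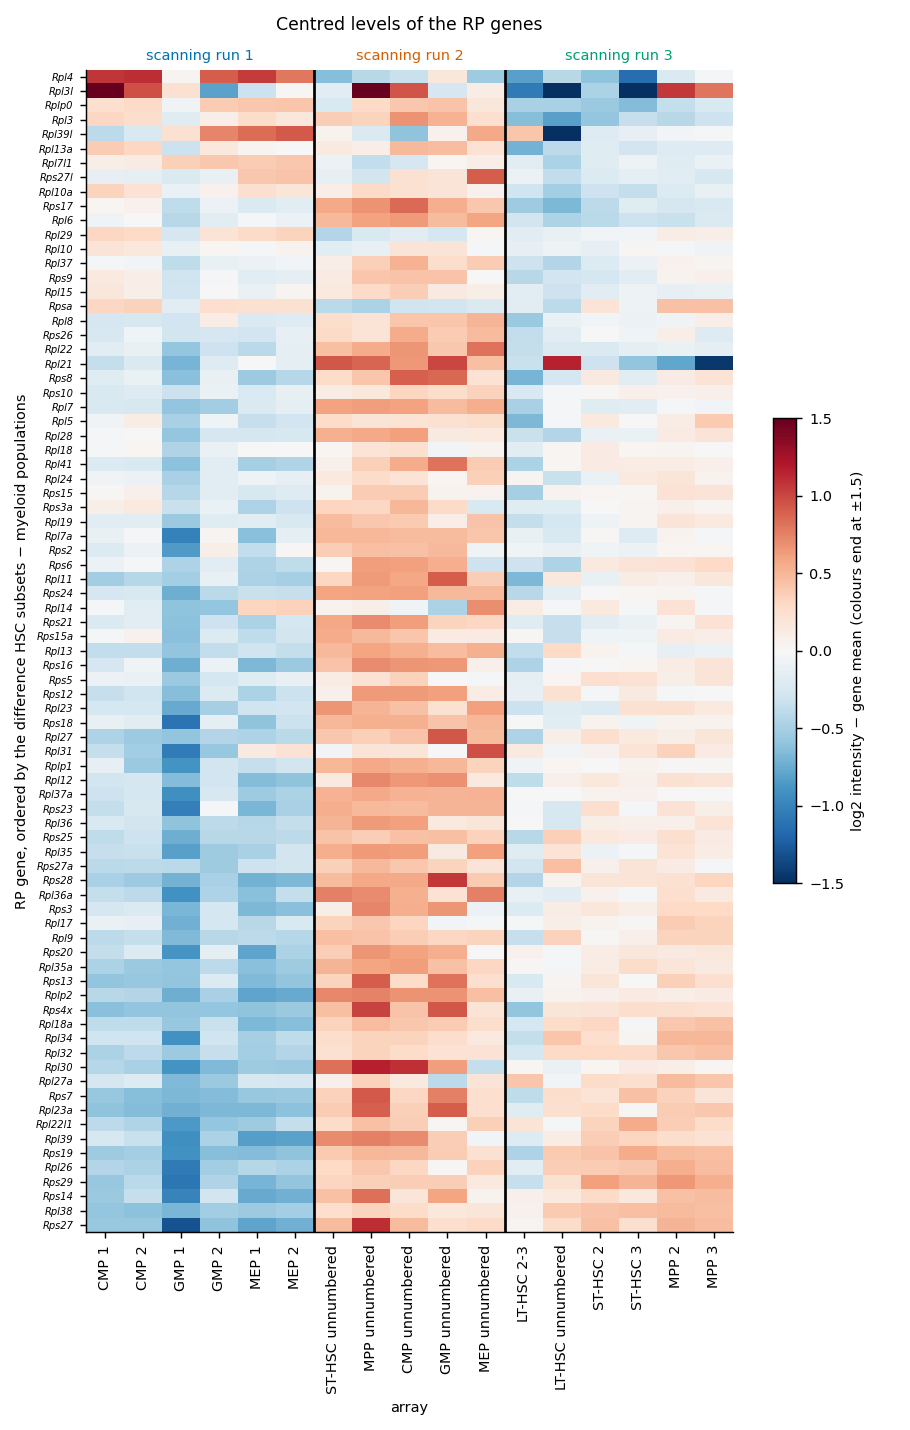
Log2 intensity of 81 RP genes, each centred on its own mean, on the 17 arrays grouped by scanning run, with genes ordered by the difference between HSC subsets and myeloid populations. Arrays of run 2 are red for most genes, those of run 1 blue, and those of run 3 in between, with Rpl4 and a few others the opposite way.

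The RP gene levels followed the scanning run. On the 6 arrays of run 1, the median over the 82 genes of the level centred on each gene's mean was -0.60 to -0.22 log2, and 4 to 19 genes were above their own mean. On the 5 arrays of run 2 it was 0.26 to 0.47, with 70 to 76 genes above their mean. On the 6 arrays of run 3 it was -0.23 to 0.12, with 16 to 63 genes above. The arrays of runs 1 and 2 did not overlap, although both held CMP, GMP and MEP. The gap between runs 2 and 1 in the mean of these array medians was 0.71 log2, and 0.42 with each array centred on its 75th percentile. The same median over all gene names lay between -0.12 and 0.00 on every array.

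A moderated F-test of the run with population in the fit, chosen after the data were seen, called 70 of the 82 RP genes, where 32.1% of all gene names were called. The difference of run 2 from run 1 was positive for 76 genes, with a median of 0.77 log2. Within a population the same step was seen: the median over the RP genes of run 2 minus run 1 was 0.76 in CMP, 0.82 in GMP and 0.66 in MEP. Run 2 minus run 3 gave smaller medians of 0.28 in ST-HSC and 0.37 in MPP. Against the run, Rpl4, a core protein of the large subunit, had a difference of run 2 from run 1 of -1.06, and Rpsa, the 40S protein also known as the laminin receptor, of -0.46. The 12 genes for which the run was not called included Rpl14, Rplp0, Rpl5 and Rpl10. Medians per population therefore carried a wide spread: -0.13 ± 0.14 (SD, n = 2) for LT-HSC, 0.14 ± 0.17 for ST-HSC, 0.24 ± 0.20 for MPP, -0.01 ± 0.39 for CMP, -0.16 ± 0.50 for GMP and -0.15 ± 0.35 for MEP (SD, n = 3 each).

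**Figure D2:**
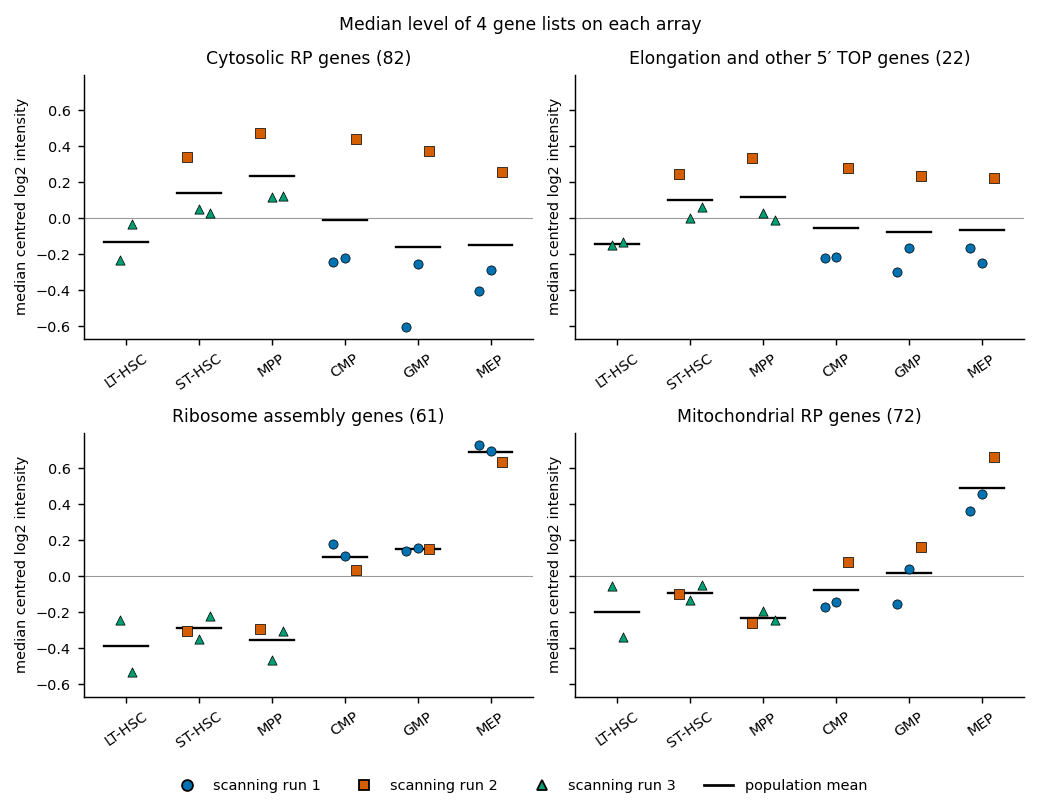
Median of the centred log2 intensity on each array for 4 gene lists, by population, with a point per array in the shape and colour of its scanning run and a line at the population mean. For the RP genes, the arrays of run 2 (0.26 to 0.47) lie above the rest. Runs 1 (-0.60 to -0.22) and 3 (-0.23 to 0.12) overlap narrowly. The TOP list separates by run, while the assembly and mitochondrial RP lists are highest on the MEP arrays.

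HSC subsets were compared with the myeloid populations, a split that the study used for its list of HSC miRs. Without the run, limma called 20 RP genes, 12 higher and 8 lower in HSC subsets, where 40.7% of all gene names were called, 21.7% higher and 19.1% lower. Of the small-subunit genes 6 of 32 were called, and of the large-subunit and stalk genes 14 of 50. The median difference was 0.18 log2 over the RP genes and 0.04 over all gene names. With each array centred on its 75th percentile 9 were higher and 7 lower, and the medians were 0.15 for the RP genes and 0.37 for all gene names, so the RP median was above that of all gene names under the former scaling and below it under the latter. The shares of all gene names called under the latter are not given here, so the 9 and 7 cannot be set against them. No RP gene separated the 8 arrays of HSC subsets from the 9 myeloid arrays without overlap, where 7.18% of all gene names did. With the run in the fit, 1 RP gene was called, where 16.1% of all gene names were called, and the medians were -0.02 and -0.05.

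Among the 12 higher genes was Rpl38, a protein known for its part in the translation of Hox mRNAs. Rpl38 read 17.34 and 17.67 in LT-HSC, 17.71, 17.73 and 17.53 in ST-HSC, 17.75, 17.73 and 17.62 in MPP, 16.71, 16.66 and 17.56 in CMP, 16.59, 16.76 and 17.44 in GMP, and 16.74, 16.77 and 17.46 in MEP. In each myeloid population the high value was the array of run 2, and it lay among the HSC subset arrays. The difference of Rpl38 was 0.65 ± 0.17 log2 (SE, adjusted p = 0.00709), and 0.01 ± 0.12 with the run in the fit (adjusted p = 0.971). Rps27 changed from 0.81 (adjusted p = 0.0178) to 0.37 (adjusted p = 0.27).

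The largest fall among the 8 was that of Rpl4. On the 6 arrays of run 1, all myeloid, it read 12.74 to 13.80, and on the other 11 arrays 11.55 to 12.86. Its difference was -1.02 ± 0.26 log2 (SE, adjusted p = 0.00772), and -0.33 ± 0.35 with the run (adjusted p = 0.617). Rpl3, a large-subunit protein close to the peptidyl transferase center, went from -0.61 (adjusted p = 0.00783) to -0.23 (adjusted p = 0.382) in the same way. Rpl3l had a difference of -0.76 (adjusted p = 0.0369), but was not well above background on any LT-HSC or MEP array, and with each array centred on its 75th percentile the difference turned to 0.31.

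Rplp0, the scaffold protein of the stalk that helps recruit elongation factors, read 14.41 and 14.41 in LT-HSC, 14.34, 14.24 and 14.66 in ST-HSC, and 14.53, 14.66 and 15.18 in MPP. It read 15.14, 15.18 and 15.30 in CMP, 14.83, 15.27 and 15.31 in GMP, and 15.29, 15.31 and 15.06 in MEP. The MPP array of run 2 therefore lay among the myeloid arrays, and the other HSC subset arrays lay below all of them. The difference was -0.65 ± 0.11 log2 (SE, adjusted p = 0.000505) without the run and -0.31 ± 0.16 with it (adjusted p = 0.24). Within run 2, ST-HSC and MPP minus the myeloid arrays gave -0.30. The other stalk proteins, Rplp1 and Rplp2, were not called in any comparison and moved with the run: Rplp2 read 17.09 to 17.47 on the 6 arrays of run 1, 18.34 to 18.64 on the 5 of run 2 and 17.78 to 18.01 on the 6 of run 3. Its difference of run 2 from run 1 was 1.20 log2 (adjusted p of the run 8.7e-05).

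Other genes among the 20 followed the same course. Rpl26, Rpl22l1, Rpl32 and Rpl10a, called at 0.61, 0.55, 0.45 and -0.36 log2, came to 0.01, 0.00, -0.07 and -0.01 with the run. Rpl39 and Rpl17 came from 0.56 and 0.36 to 0.27 and 0.23. Rpl13a, known for its part in the control of inflammatory mRNAs, kept more of its difference, with -0.44 (adjusted p = 0.00837) and -0.38 with the run (adjusted p = 0.161), and -0.27 within run 2. Of the paralog pairs, Rpl22l1 was called without the run, its partner Rpl22 had -0.07 (adjusted p = 0.828), and Rpl7 and Rpl10 had 0.04 and -0.15 (adjusted p = 0.889 and 0.0845). The other Rpl7 probes were both called lower, at -0.36 (adjusted p = 0.0377) and -0.38 (adjusted p = 0.00997).

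**Figure D3:**
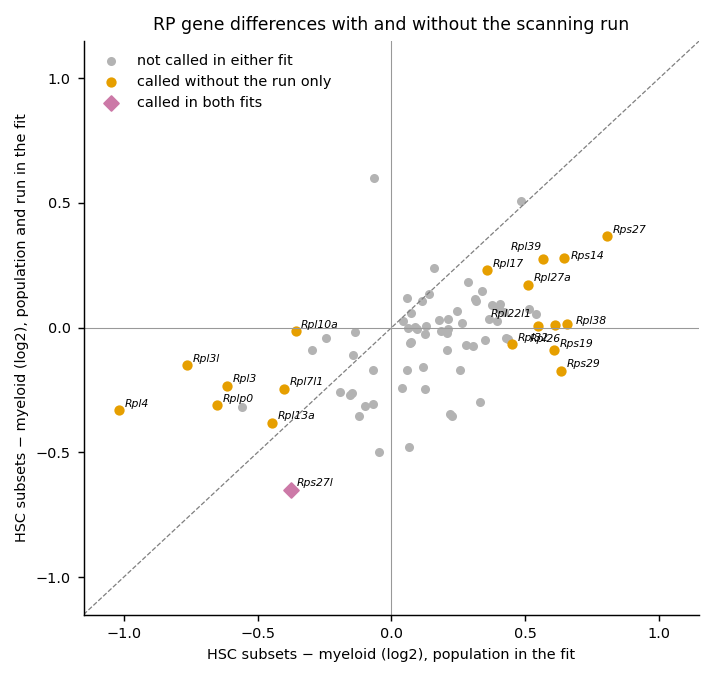
Difference between HSC subsets and myeloid populations (log2) for 81 RP genes, from the fit with population on the horizontal axis and from the fit with population and scanning run on the vertical axis. The called genes other than Rps27l lie closer to 0 on the vertical axis than on the horizontal one, and Rps27l, at -0.38 and -0.65, is called in both fits.

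Rps27l was the RP gene called in both fits. It encodes a paralog of Rps27 that is a target of p53, and the difference between HSC subsets and myeloid populations was -0.38 ± 0.10 log2 (SE, adjusted p = 0.01) and, with the run, -0.65 ± 0.11 (adjusted p = 0.00323). Within run 2 it was -0.64. Without the MPP array of run 2, the adjusted p with the run was 0.051, and no RP gene was then called by limma (2 at an unadjusted p under 0.05).

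Rps27l read 15.15, 15.17 and 15.66 in MEP. In the other populations it read 14.67 and 14.39 in LT-HSC, 14.55, 14.62 and 14.63 in ST-HSC, 14.58, 14.51 and 14.48 in MPP, 14.62, 14.62 and 14.98 in CMP, and 14.54, 14.64 and 14.95 in GMP. All 3 MEP arrays were above the other 14, and within MEP, CMP and GMP the array of run 2 was the highest. MEP minus the mean of the other populations was 0.71 ± 0.13 log2 (SE, adjusted p = 0.000931), and 0.87 ± 0.09 with the run (adjusted p = 3.44e-05). Against CMP and GMP of the same run it was 0.56 in run 1 and 0.69 in run 2.

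The partner gene, Rps27, a metal-binding protein of the small subunit, followed another pattern. It read 16.62, 16.68 and 17.69 in MEP, 16.10, 16.80 and 17.66 in GMP, 16.83, 16.84 and 17.88 in CMP, 17.85, 17.65 and 17.88 in ST-HSC, 17.91, 17.87 and 18.51 in MPP, and 17.44 and 17.68 in LT-HSC. The arrays of run 1 were lowest in all 3 myeloid populations, and those of run 2 overlapped the HSC subsets. Its difference in MEP was -0.50 ± 0.32 log2 (SE, adjusted p = 0.275), and -0.24 ± 0.17 with the run (adjusted p = 0.35). Whether the pair differed from each other between populations was not tested.

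MEP was next compared with the other 5 populations. Without the run 6 RP genes were called, where 30.9% of all gene names were called: 5 were higher (15.8% of all gene names), namely Rpl39l, Rps27l, Rpl14, Rplp0 and Rpl7l1, and Rps3a was lower (15.1%). With the run 5 were called, where 32.6% of all gene names were called: Rps27l, Rpl31 and Rpl14 were higher, and Rpl39 and Rps3a lower. The median difference over the RP genes was -0.15 log2 without the run and 0.00 with it, and over all gene names 0.00 and 0.09. With each array centred on its 75th percentile instead of quantile normalization, 14 RP genes were called and all 14 were higher, with a median of 0.26 over the RP genes and 0.09 over all gene names, so the direction of the family in MEP depended on the scaling. The share of all gene names called under that scaling is not given here, so the 14 cannot be set against it.

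Rpl14, a protein of the large subunit, stood out in both directions. It read 12.18, 12.20 and 12.55 in MEP and 11.25, 11.28 and 11.38 in GMP. In the other populations it read 11.83, 11.68 and 11.79 in CMP, 11.97 and 11.83 in LT-HSC, 12.01, 11.84 and 11.90 in ST-HSC, and 12.08, 11.84 and 11.95 in MPP. All MEP arrays were above, and all GMP arrays below, every array of the other 4 populations. MEP minus the others was 0.54 ± 0.10 log2 (SE, adjusted p = 0.00099) and 0.62 ± 0.11 with the run (adjusted p = 0.000983), with 0.68 in run 1 and 0.97 in run 2 against CMP and GMP. The order of the means was MEP, MPP, ST-HSC, LT-HSC, CMP and GMP, and the arrays of the 4 in the middle, at 11.68 to 12.08, were not separated from their neighbours.

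Rpl31, a protein at the exit of the peptide tunnel and a Diamond-Blackfan anemia gene, read 11.63, 11.70 and 12.46 in MEP, 11.13, 10.96 and 11.66 in CMP, 10.44, 10.91 and 11.49 in GMP, 11.63 and 11.45 in LT-HSC, 11.55, 11.70 and 11.44 in ST-HSC, and 11.83, 11.61 and 11.68 in MPP. The MEP arrays overlapped the HSC subsets, but in each run the MEP arrays were above those of CMP and GMP. MEP minus the others was 0.53 ± 0.22 log2 (SE, adjusted p = 0.0858) and 0.87 ± 0.13 with the run (adjusted p = 0.000383), with 0.80 in run 1 and 0.88 in run 2 against CMP and GMP. The other probe of Rpl31 gave 0.64 (adjusted p = 0.0136) without the run.

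Rps3a, a small-subunit protein at the mRNA exit side, read 15.62, 15.76 and 15.85 in MEP. It read 15.74, 15.97 and 16.37 in GMP, 16.16, 16.23 and 16.57 in CMP, 15.89 and 15.90 in LT-HSC, 16.08, 16.12 and 16.41 in ST-HSC, and 16.16, 16.11 and 16.38 in MPP. The MEP arrays were below all others except GMP replicate 1. MEP minus the others was -0.39 ± 0.14 log2 (SE, adjusted p = 0.0455) and -0.38 ± 0.10 with the run (adjusted p = 0.0126). With each array centred on its 75th percentile it was 0.045 (adjusted p = 0.878) without the run. A second Rps3a probe had -0.19 in MEP (adjusted p = 0.141) and was not called there, and was called higher in HSC subsets, at 0.26 (adjusted p = 0.00992), where the main probe had 0.07 (adjusted p = 0.611). Rpl39, the small protein that lines the exit tunnel, had -0.67 (adjusted p = 0.0864) without the run and -0.49 ± 0.13 (adjusted p = 0.0122) with it. Its paralog Rpl39l read 5.52, 5.60 and 5.25 in MEP and 2.70 to 5.41 elsewhere, with 0.98 (adjusted p = 0.0377) and, with the run, 0.84 (adjusted p = 0.186). Rpl39l was near background: it was well above it on 1 of 2 LT-HSC and 2 of 3 CMP arrays.

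Rplp0 and Rpl7l1 were called in MEP without the run, at 0.43 (adjusted p = 0.0429) and 0.37 (adjusted p = 0.036), and not with it, at 0.22 (adjusted p = 0.257) and 0.28 (adjusted p = 0.0538). Within run 2 the MEP array minus CMP and GMP gave -0.25 for Rplp0. Rpl7l1, a paralog of Rpl7 found in large-subunit precursors, had a second probe called in the same directions, with MEP minus the others at 1.26.

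**Figure D4:**
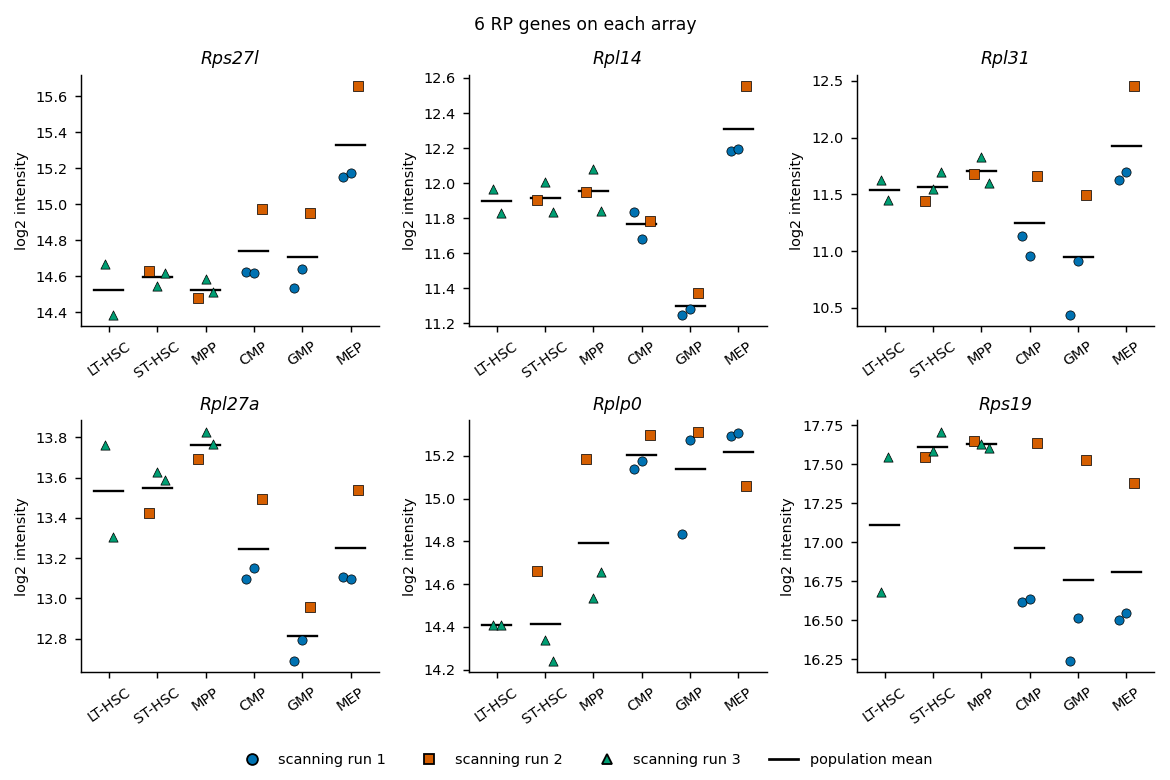
Log2 intensity of 6 RP genes on each array, by population, with the point's shape and colour giving the scanning run and the line the population mean. Rps27l and Rpl14 are highest on all 3 MEP arrays, Rpl14 and Rpl27a lowest on all 3 GMP arrays, and Rps19 splits by run, with the myeloid arrays of run 1 at 16.24 to 16.64 and those of run 2 at 17.38 to 17.64.

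GMP was compared with the other populations in the same way. Rpl14 and Rpl27a were called, both lower, in both fits: 2 of 82, where 20% of all gene names were called without the run and 17.3% with it. The median difference over the RP genes was -0.20 log2, and -0.06 with the run. Rpl14 had -0.67 ± 0.10 log2 (SE, adjusted p = 0.000421) and, with the run, -0.59 ± 0.11 (adjusted p = 0.0029), with -0.71 in run 1 and -0.79 in run 2 against CMP and MEP.

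Rpl27a, a protein of the large subunit, read 12.69, 12.79 and 12.96 in GMP, 13.10, 13.15 and 13.49 in CMP, 13.11, 13.10 and 13.54 in MEP, 13.76 and 13.31 in LT-HSC, 13.63, 13.59 and 13.43 in ST-HSC, and 13.83, 13.77 and 13.69 in MPP. All 3 GMP arrays were below the other 14. GMP minus the others was -0.65 ± 0.13 log2 (SE, adjusted p = 0.00322), and -0.45 ± 0.11 with the run (adjusted p = 0.0194). A second Rpl27a probe, designed on a cDNA clone, was called the opposite way in HSC subsets against myeloid populations, at -0.50 (adjusted p = 0.00332) where the main probe had 0.51 (adjusted p = 0.00142, both over all probes). In GMP the second probe had -0.30 (adjusted p = 0.188) and was not called, and in MEP it had 1.36 (adjusted p = 1.01e-05), where the main probe had -0.13 (adjusted p = 0.527). It was the RP gene whose probes were called both ways, out of 24 with several probes and at least 1 of them called. Rpl22, an RNA-binding protein of the large subunit studied for its part in lymphocyte development, was not called by its main probe. A second Rpl22 probe was called in HSC subsets against myeloid populations at 0.96 (adjusted p = 2.47e-07) and in MEP at -1.12 (adjusted p = 3.66e-07).

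LT-HSC was compared with ST-HSC and MPP, which were sorted together. The median difference of the RP genes in LT-HSC was -0.33 log2 without the run and -0.24 with it, but 0.04 with each array centred on its 75th percentile. Under quantile normalization 1 and 3 of the 82 had a positive difference, without and with the run. Over all gene names the medians were -0.04 and -0.07, and 0.23 under the 75th percentile. That scaling moved the median of all gene names to 0.37 in HSC subsets against myeloid populations and to -0.32 in GMP.

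Without the run 1 RP gene was called in LT-HSC, Rpl3l, where 7.99% of all gene names were called. With the run 7 were called, all lower, where 16% of all gene names were called. In that fit LT-HSC and its slide cannot be told apart, and with the slide as a random block, without the run, 0 were called by limma (4 at an unadjusted p under 0.05). Rpl3l was well above background on 0 of 2 LT-HSC arrays, 0 of 3 MEP arrays, 2 of 3 GMP arrays, and all 3 arrays of ST-HSC, MPP and CMP. It read 5.54, 5.28 and 6.10 in MPP, 6.07, 5.45 and 5.43 in CMP, and 4.0, 2.90 and 4.31 in ST-HSC. Against the lowest signals that counted as well above background, MPP and CMP were each at least 1.59-fold higher than LT-HSC, and at least 1.89-fold and 1.90-fold higher than MEP. No fold could be given for ST-HSC.

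The other 6 genes called lower in LT-HSC with the run were Rps29, Rps6, Rpsa, Rpl28, Rpl19 and Rpl37. Rps6, the substrate of S6 kinase, read 15.40 and 15.25 in LT-HSC, 15.85, 15.91 and 15.73 in ST-HSC, and 15.92 to 16.34 on the 3 MPP arrays. Both LT-HSC arrays were below the 6 others. The difference was -0.63 ± 0.24 log2 (SE, adjusted p = 0.14), and -0.60 ± 0.18 with the run (adjusted p = 0.0429). Rps29 had -0.64 (adjusted p = 0.0455) with the run and read 16.82 and 17.39 in LT-HSC against 17.48 to 17.81 in ST-HSC and MPP. These calls rested on 2 LT-HSC arrays: without the unnumbered one 14 RP genes were called with the run and without the pooled one 11, while leaving out MPP replicate 2 left 0 called by limma (17 at an unadjusted p under 0.05).

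Of the 19 genes on a list for Diamond-Blackfan anemia and the 5q- syndrome, 5 were called higher in HSC subsets without the run (Rps19, Rps14, Rps27, Rps29 and Rpl26), where 21.7% of all gene names were called higher. None was called lower, where 19.1% of all gene names were. With the run none of the 19 was called (2 at an unadjusted p under 0.05), where 16.1% of all gene names were called. The list's median went from 0.23 to -0.09 log2. Rps19, the gene most often mutated in Diamond-Blackfan anemia, read 16.24 to 16.64 on the 6 arrays of run 1, 17.38 to 17.65 on the 5 of run 2, 16.68 on the pooled LT-HSC array and 17.54 to 17.71 on the other 5 of run 3. Its difference was 0.61 (adjusted p = 0.0438) without the run and -0.09 (adjusted p = 0.857) with it. Rps14, the gene of the 5q- syndrome, went from 0.64 (adjusted p = 0.025) to 0.28 (adjusted p = 0.45). In MEP none of the 19 was called without the run (1 at an unadjusted p under 0.05), where 30.9% of all gene names were called. With the run Rpl31 alone was called, where 32.6% of all gene names were. Rpl5 and Rpl11, which together with 5S RNA bind Mdm2, were not called in either comparison. The run was called for 17 of the 19, all but Rpl5 and Rpl18, where it was called for 32.1% of all gene names. Rps28 and Rpl27 had the largest steps, with a difference of run 2 from run 1 of 1.28 and 1.10 log2, and Rpl15, at 0.21, the smallest among those called.

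Genes that build the ribosome or work with it were read for comparison, from lists that are part of the same pathway. Over all gene names, 15.8% were called higher and 15.1% lower in MEP without the run, and 32.6% were called in either direction with it. In HSC subsets against myeloid populations the shares were 21.7% higher and 19.1% lower, and 16.1% in either direction with the run. Of 61 genes for ribosome assembly and rRNA synthesis, 45 were called higher and 0 lower in MEP without the run, and 54 higher with it, with medians of 0.80 and 0.85 log2. Of 72 mitochondrial RP genes, 52 were higher and 1 lower, and with the run 63 higher, with medians of 0.58 and 0.72. For the RP genes the medians were -0.15 and 0.00, with 5 and 3 genes called higher, and 14 higher under the 75th percentile. In HSC subsets against myeloid populations, 40 assembly genes were lower and 1 higher, and 36 mitochondrial RP genes were lower and 2 higher. With the run, 29 and 44 were lower and none higher. Among those with the largest differences were Imp4 (-2.56) and Rrp12 (-2.36), which process pre-rRNA, and the mitochondrial RP genes Mrpl37 (-2.09) and Mrps27 (-1.63).

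Array medians were read for the TOP, assembly, mitochondrial RP and initiation lists. Among these, the list of 22 elongation factor and other TOP genes was closest to the RP genes in how it moved with the run. Its array medians were -0.30 to -0.16 in run 1, 0.22 to 0.33 in run 2 and -0.15 to 0.06 in run 3, in the same order as those of the RP genes. In HSC subsets 6 were higher and 5 lower without the run, and with it 0 higher and 1 lower. Eef2, the translocase of elongation, went from -1.57 (adjusted p = 0.000811) to -0.04 (adjusted p = 0.937). In MEP 4 were higher and 2 lower, and with the run 7 and 2. Of 21 initiation factors, 9 were higher and 1 lower in MEP, and of 15 genes of mTORC1 and S6 kinase control 8 were higher and 1 lower. These counts stand beside the shares of all gene names given above (in either direction without the run, 40.7% in HSC subsets and 30.9% in MEP). In HSC subsets 2 initiation factors were higher and 9 lower, and with the run 1 and 6. Of the mTORC1 and S6 kinase genes 1 was higher and 8 lower, and with the run 0 and 2, where 16.1% of all gene names were called. Eif4g1, the scaffold of the cap complex, had a difference of -2.09 log2 in HSC subsets, and Rps6kb2, an S6 kinase, of -1.31, both called without the run. Their values with the run are not given here.

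**Figure D5:**
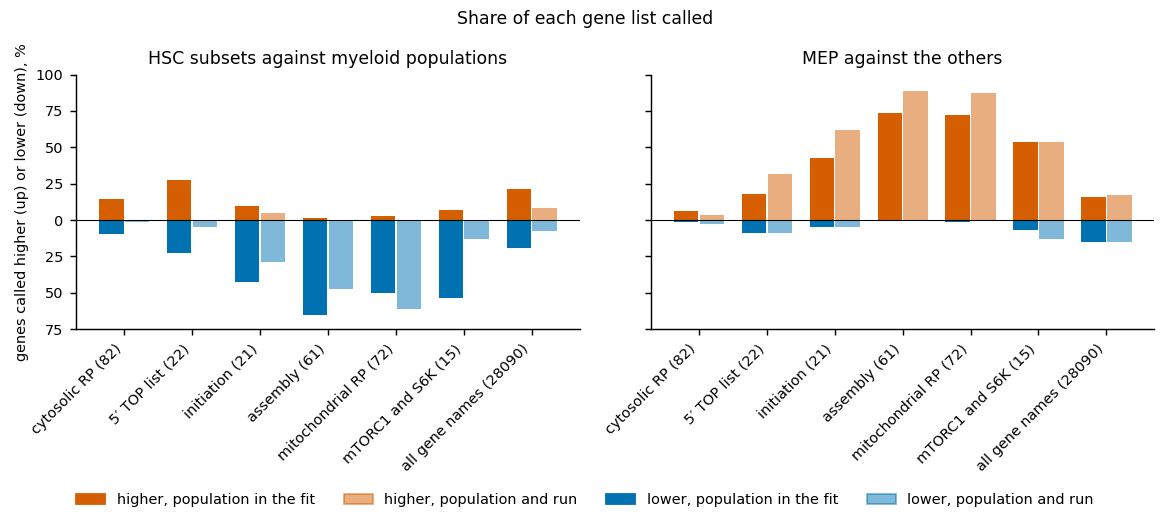
Share of each gene list called higher (bars up) or lower (bars down) in HSC subsets against myeloid populations and in MEP against the other populations, in percent of the genes on the list, with full colour for the fit with population and pale colour for the fit with population and run. Under quantile normalization, as plotted, the RP genes have 5 and 3 genes called higher in MEP, while 45 and 54 of 61 assembly genes and 52 and 63 of 72 mitochondrial RP genes are called higher.

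Rps27l higher in MEP, Rpl14 higher in MEP and Rpl14 lower in GMP were called under all 28 alternatives to the fit without the run and under all 18 to the fit with it. Some of the 28 left their levels unchanged. No RP gene had a saturated spot to leave out, and with 1 probe each the mean of all probes was the same value. Those 18 left out 1 array each or both LT-HSC arrays, so no other scaling, background correction or choice of probe was tried with the run in the fit. Rpl31 higher in MEP, called in the fit with the run, was called under all 18 of these omissions. Rpl27a lower in GMP was called under 27 of 28 and 15 of 18. In HSC subsets against myeloid populations, Rps27l lower was called under 27 of 28 (not with the replicate block on the 10 numbered arrays, at -0.24) and 17 of 18 (not without the unnumbered MPP array, at -0.59). Rps27 higher, Rplp0 lower and Rpl7l1 lower were each called under 27 of 28, the exception being the scanning run as a block. Other calls named above were made under fewer of the 28 alternatives. In MEP these were 21 for Rpl7l1, 16 for Rplp0, 15 for Rpl39l and 14 for Rps3a, which turned under 1, and in HSC subsets 17 for Rps29, 12 for Rpl39, 11 for Rps19, 11 for Rpl3l, and 23 to 26 for Rps14, Rpl26, Rpl22l1, Rpl38, Rpl4 and Rpl3. With the run in the fit, Rps3a and Rpl39 lower in MEP were each called under 16 of the 18 omissions, and the 75th percentile, under which Rps3a turned, was not tried with the run.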

How the data were processed

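The authors deposited, for each of 17 arrays, an Agilent Feature Extraction file with linear spot intensities, and a series table. Per the deposited columns, the processed signal intensity is background-subtracted, and the table's values follow the order of the median spot intensity. The authors' methods state quantile normalization and linear models in limma. Here intensities as deposited were taken to log2 and quantile-normalized between arrays. Control spots (1639 per array) and 1567 outlier values were then left out. Values were averaged over spots of a probe, and the probe with the highest mean was kept per gene name (limma 3.58.1, R 4.3.3).

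limma's lmFit and eBayes were fitted with 1 mean per population over all arrays, again with the scanning run as a fixed block. P-values were adjusted by Benjamini-Hochberg over 28090 gene names, or over all probes for values of second probes, and "called" means an adjusted p under 0.05. The F-test of the run, within-run differences, and the alternatives to the fit with the run were added after seeing the data. Per the study's methods each replicate was a pool of several mice. P-values measure the spread between arrays of a population, which without the run in the fit also holds the step between runs. Mouse pools that populations may share were not part of these fits. Arrays are few, 2 or 3 per population, which limits the precision.

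Members and gene lists were chosen with earlier results of these data known. Named were, per contrast, the 3 largest rises and falls among called genes, the anemia list, paralog pairs, the stalk genes with Rpsa, genes not above background in a population, and up to 4 genes per other list by their difference in HSC subsets. Rpl10l was not on the array. Results for 1 RP gene and 1 gene of another list are in the counts but are not reported here by name, and the former is left out of the plots of single genes. Rps6, Rpl28, Rpl19, Rpl37, the less extreme called genes and the second probes were named after their values were seen. The code was tested on simulated data. Alternatives were another scaling, background correction, the authors' table, leaving out dim probes, the mean of all probes, saturated spots, run, slide and replicate number as blocks, and arrays left out. With the run in the fit, arrays left out were the only alternative. Start sequences came from RefSeq (GRCm38.p6) and probe sequences from the scanner files.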

Additional observations from a re-analysis of the deposited data

Results flagged for a closer look

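Arrays that stood apart from the rest of their class were looked for in 39 named RP genes, and in the array medians of the RP genes, over the 8 arrays of HSC subsets and the 9 myeloid arrays (80 groups of values in all). A gap test put 1 array apart in 9 of them, and chance gives about 1 in 20 groups.

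The pooled LT-HSC array was the lowest of the HSC subsets for 5 genes. It read 16.68 log2 for Rps19, with the nearest other array at 17.54, 16.60 for Rpl5 (17.27), 16.81 for Rpl27 (17.35), 16.90 for Rpl26 (17.37) and 16.82 for Rps29 (17.39). All 5 are on the Diamond-Blackfan anemia list, which made up 19 of the 39 genes looked at.

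The unnumbered LT-HSC array, the dimmest, was lowest for Rpl39l at 2.70, with the nearest at 4.46. The MPP array of run 2 was the highest of the HSC subsets for Rplp0 at 15.18 (nearest 14.66) and for Rps27 at 18.51 (nearest 17.91). Among the myeloid arrays, GMP replicate 1 was lowest for Rpl18 at 14.50 (nearest 14.85).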

How the results depend on the processing

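Counts of called RP genes moved by over 1.5 times as follows, and the cause was not tested. Apart from the scanning run as a block, shares of all gene names called under these settings are not given here. With the 75th percentile GMP had 4 and MEP 14, with normexp GMP had 5, and with the authors' own table the 6 populations differed in 11 genes and GMP in 5. With the mean of all probes these were 16 and 7, and LT-HSC had 2. With the scanning run as a block HSC subsets had 1 and LT-HSC 7. With the slide as a random block HSC subsets had 8, GMP 5 and LT-HSC 0 (4 at an unadjusted p under 0.05). With both LT-HSC arrays left out and the run in the fit, GMP had 7 and MEP 8. The gap between runs 2 and 1 in the array medians, 0.71 log2, was 0.55 over the mean of all probes and 0.42 for arrays centred on the 75th percentile.

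Turned directions were looked for in the genes named by rule, where the gene was called in the reported or the changed fit. They turned for Rpl3l in HSC subsets (0.31), Rps3a in MEP (0.045) and Rpl5 in MEP (0.42) with the 75th percentile, for Rpl22 in HSC subsets (0.44) and MEP (-0.50) with the mean of all probes, and for Rps19 (-0.090) and Rps29 (-0.17) in HSC subsets with the run. Rpl32, called without the run but named later, also turned with it (-0.07). Over all 82 RP genes, called or not, 60 had a positive difference in HSC subsets without the run and 35 with it.

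With 1 array left out, the counts ranged from 5 to 18 over the 6 populations (18 without the unnumbered GMP and 12 without the unnumbered CMP array), 12 to 29 in HSC subsets (12 without the unnumbered LT-HSC array), 0 to 2 in LT-HSC (0 without the unnumbered array, with 4 at an unadjusted p under 0.05 in limma), 2 to 10 in GMP (10 without its unnumbered array) and 2 to 8 in MEP (3 without ST-HSC replicate 3 or the unnumbered LT-HSC array, 2 without MEP replicate 1 or 2). With the run in the fit they ranged from 7 to 21, 0 to 2, 0 to 14, 1 to 6 and 3 to 10 in the same order. Over the populations they moved without either LT-HSC array (18 and 21) or GMP replicate 1 (19), in HSC subsets without the pooled LT-HSC (2) or unnumbered MPP array (0, with 2 at an unadjusted p under 0.05), in LT-HSC without any of 15 of the 17 arrays, in GMP without either LT-HSC array (6 and 5), GMP replicate 1 or 2 (4 and 6) or the unnumbered GMP, ST-HSC or MPP array (1 each), and in MEP without either LT-HSC array (8 each), the unnumbered MEP array (3) or GMP replicate 1 (10). Where an LT-HSC array was left out, the remaining one was assumed to vary like the other groups.

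Deviations of same-numbered arrays correlated at 0.13 to 0.53 among ST-HSC and MPP or among the myeloid populations, and at -0.07 to 0.02 between these classes. In the myeloid arrays number and slide cannot be told apart, ST-HSC and MPP 2 and 3 shared a slide, and the pairing was not settled. On the 10 numbered arrays, where class and scanning run cannot be told apart, counts without the replicate block were 51 over the populations, 64 in HSC subsets, 36 in GMP and 31 in MEP, and with the replicate block 28, 38, 25 and 24. Rpl3l in HSC subsets turned to 0.22 with the replicate block. LT-HSC could not be compared on these arrays. No RP gene had a saturated spot to leave out, and the filter on dim probes and leaving out LT-HSC without the run kept all counts within 1.5 times.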
